A study of Mus musculus with 6 samples.

Results

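The steroid hormone receptors and their coregulators were examined as 8 genes: Esr1, Esr2, Pgr, Nr3c1, Nr3c2, Ncoa1, Ncoa2 and Ncor1. They were chosen by gene symbol, and every probe that the platform annotation assigned to 1 of these symbols was taken, which gave 18 probes for 7 of the 8 genes, out of 45281 probes and 19057 genes on the array. Ncor1, which encodes a corepressor, was not analysed here. RNA came from the ventromedial hypothalamus of mice of mixed genetic background aged 16 weeks and was hybridised to Illumina bead arrays. The SIRT1 deletion group consisted of 3 RNA pools from mice with Sf1-Cre and 2 floxed Sirt1 alleles (Sf1-Cre; Sirt1loxP/loxP), and the control group of 3 pools from mice that had the floxed alleles without Cre (Sirt1loxP/loxP). Both groups therefore shared the floxed alleles. Only the deletion group carried Sf1-Cre, so effects of Cre and of the Sirt1 deletion cannot be told apart in any difference given here. Cre was driven by Sf1, so recombination was directed to cells of the SF1 lineage, and RNA was taken from the whole region. The sources used here do not say how many animals a pool held or whether pools were independent, so p-values reflect only how these pools varied, which may in part be technical.

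Steroid receptors are transcription factors that are activated when their hormone binds. The receptor then releases its chaperones, binds DNA and recruits p160 coactivators such as the products of Ncoa1 and Ncoa2, whereas corepressors such as the product of Ncor1 bring histone deacetylases to the gene. In the ventromedial nucleus, neurons with oestrogen receptor alpha (Esr1) and the progesterone receptor (Pgr), an oestrogen-induced gene there, are known for roles in reproductive and social behaviour and in energy balance. The glucocorticoid receptor (Nr3c1) and the mineralocorticoid receptor (Nr3c2) bind corticosterone, and Esr2 encodes the second oestrogen receptor.

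The promoter windows of the receptors detected here are shown because they surround annotated starts of the transcripts that the results turn on. They are from RefSeq (GRCm38.p6) and run from 250 bases before to 50 bases after an annotated start, 5′ to 3′ on the gene's strand, with the core of the oestrogen response element (GGTCA, or TGACC on the other strand) in capitals.
Esr1, upstream start, chr10:4611739-4612038, plus strand: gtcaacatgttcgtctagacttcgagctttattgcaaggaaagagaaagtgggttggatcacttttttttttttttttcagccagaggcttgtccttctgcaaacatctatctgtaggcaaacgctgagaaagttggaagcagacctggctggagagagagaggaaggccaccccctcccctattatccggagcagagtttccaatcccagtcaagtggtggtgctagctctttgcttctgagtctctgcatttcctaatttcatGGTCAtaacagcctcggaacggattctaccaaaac
Esr1, downstream start, chr10:4709908-4710207, plus strand: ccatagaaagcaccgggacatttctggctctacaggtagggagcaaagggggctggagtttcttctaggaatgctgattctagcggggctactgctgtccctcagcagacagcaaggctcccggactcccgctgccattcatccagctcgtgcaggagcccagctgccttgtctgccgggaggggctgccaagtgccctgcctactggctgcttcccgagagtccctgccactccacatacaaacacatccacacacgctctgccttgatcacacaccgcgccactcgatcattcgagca
Pgr, chr9:8899583-8899882, plus strand: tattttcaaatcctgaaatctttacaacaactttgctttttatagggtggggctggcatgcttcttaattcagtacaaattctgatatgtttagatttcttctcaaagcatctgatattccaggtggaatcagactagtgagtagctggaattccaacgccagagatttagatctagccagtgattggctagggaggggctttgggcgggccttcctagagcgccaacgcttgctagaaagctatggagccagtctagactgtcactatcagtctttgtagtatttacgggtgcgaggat
The upstream Esr1 window held 1 copy of the core, at position +15, past the annotated start. These letters did not occur in the downstream Esr1 window or the Pgr window. Which Esr1 start was in use was not measured. Of all 32851 promoter windows of this length in the table, 40.5% held the core. The SF1 site AAGGTCA, which contains the same core and was searched on both strands, occurred in 4.72% of all windows and in none of the 3 shown. The letters AGAACA, searched on both strands and bound by glucocorticoid and progesterone receptors as part of a palindrome, occurred in 19.0% of all windows and in none of the 3 shown. A match of letters describes the window and is not a measured binding site. Windows were found for 6 of the 8 genes.

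Between 20053 and 20611 probes per array were detected at a detection p-value under 0.05. The median raw signal was 141.2 ± 0.881 in SIRT1 deletion pools and 147.5 ± 1.99 in control pools (SD, n = 3 each). Total signal was lower in every deletion pool (17345000 to 17496800) than in every control pool (19246800 to 19342400). Quantile normalisation gave all arrays the same distribution and so removed this difference, whose source was not tested. Of 10 markers of the ventromedial nucleus 9 were measured, among them the dim Nr5a1, with a mean log2 intensity from 9.41 to 9.58 over the pools. Of 6 markers of the lateral and paraventricular hypothalamus 5 were measured, with means from 12.1 to 12.4, so markers of neighbouring regions were present too. All 11 listed exocrine pancreas genes passed the filter and were lower in SIRT1 deletion pools. Their mean log2 intensity lay from 5.78 to 6.16 in deletion pools and from 6.98 to 7.20 in control pools. Try4, Try5 and Zg16 among them were detected in control pools only. The list was chosen with earlier results of these data known, so its shared direction is no test. The 6 measured meningeal and fibroblast genes had means from 5.80 to 6.46 in deletion pools and from 5.81 to 6.97 in control pools, and the 1 measured of 6 pituitary genes lay between 4.71 and 5.42 in deletion pools and between 5.45 and 5.74 in control pools. Y-linked Eif2s3y, by its brighter probe, lay between 7.46 and 7.63 in deletion pools and between 7.54 and 7.64 in control pools, and Kdm5d was detected in all 6 pools. None of the 4 Xist probes was detected on more than 1 array. The labels do not give the sex of the animals.

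The single Sirt1 probe averaged 7.65 ± 0.13 in SIRT1 deletion pools and 7.69 ± 0.11 in control pools (log2 intensity, SD, n = 3 each), and differed by -0.03 (95% interval -0.27 to 0.21, limma adjusted p = 0.943). Whether it lies inside the floxed segment is unknown here, so it checks neither the deletion nor the labels. Nr5a1, which encodes SF1, had 0.45 (0.16 to 0.74, limma adjusted p = 0.47). Its probe was dim, with a detection p-value from 0.00107 to 0.0406 over the arrays. The difference ranged from 0.11 to 0.54 over alternative processing and with single pools left out. A second Nr5a1 probe was detected on 1 deletion array and on no control array.

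The receptors and coregulators were dim on this platform. Of the 18 probes, 4 had a detection p-value under 0.05 on at least 3 of the 6 arrays and were tested: 1 for Esr1, 1 for Pgr and 2 for Ncoa2. None of the 4 differed between SIRT1 deletion and control pools at a limma adjusted p under 0.05, or at an unadjusted p under 0.05, and in none of them were the groups apart. Over all 20402 tested probes, 0.0490% passed the adjusted threshold, 8.47% passed the unadjusted one (4.49% higher and 3.98% lower in deletion pools) and 14.0% had groups that did not overlap (7.15% with deletion pools higher, 6.84% with them lower). Against such backgrounds a count of 0 among 4 probes says little. The 95% intervals give what could be measured: the percent difference, deletion over control, lay between -15.1% and 16.2% for Esr1 and between -33.6% and 6.88% for Pgr. These percentages are on the scale of intensity with an offset of 16, which understates the change of dim probes.

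**Figure D1:**
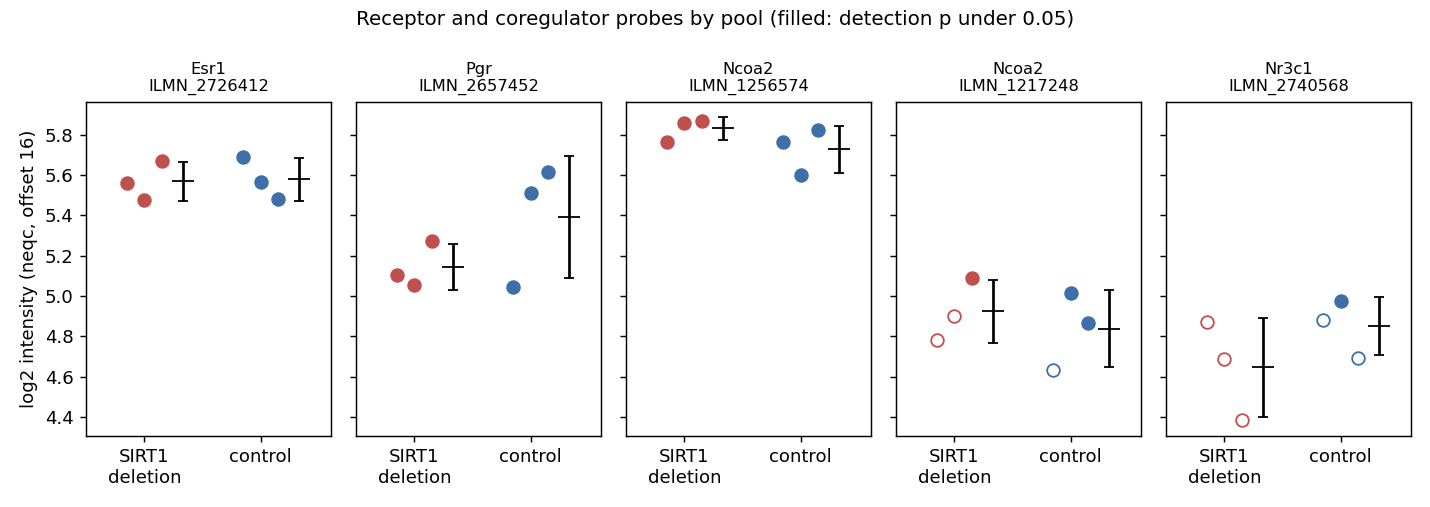
Log2 intensity of the 4 tested probes and of the Nr3c1 probe in each pool, SIRT1 deletion pools (red) left of control pools (blue); filled points had a detection p under 0.05, and bars give the mean and SD (n = 3). The groups overlap in all 5 panels, and the control pools of Pgr spread the most among the 4 tested probes, with control 1 level with the lowest deletion pool.

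Esr1, the oestrogen receptor alpha gene, was measured by the probe ILMN_2726412. Its raw signal was 160.7, 160.2 and 166.4 in SIRT1 deletion 1 to 3 and 177.5, 171.6 and 166.7 in control 1 to 3, with detection p-values from 0.00107 to 0.00321 over the 6 arrays. After normalisation the log2 intensity was 5.56, 5.48 and 5.67 in deletion pools and 5.69, 5.56 and 5.48 in control pools. The deletion pools lay within the range of the control pools but for SIRT1 deletion 2, which was level with control 3. The means were 5.57 ± 0.10 and 5.58 ± 0.11 in deletion and control pools (SD, n = 3 each), a difference of -0.01 (95% interval -0.24 to 0.22, limma adjusted p = 0.988, exact permutation p = 0.7, two-sided). With 3 against 3 pools the smallest exact p is 0.1. The sign of this difference turned with single pools, to 0.05 without control 1 and 0.04 without SIRT1 deletion 2, and it lay between -0.06 and -0.01 with any other pool left out. The other 3 Esr1 probes were not detected on any array (detection p from 0.0801 to 0.993) and differed by -0.04 to 0.03.

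Pgr, the progesterone receptor gene, had the largest difference of the tested probes. The raw signal of ILMN_2657452 was 149.4, 148.8 and 154.8 in SIRT1 deletion pools and 157.6, 169.7 and 171.2 in control pools. The normalised log2 intensity was 5.11, 5.05 and 5.27 in deletion pools and 5.05, 5.51 and 5.61 in control pools. Controls 2 and 3 were above all deletion pools, while control 1 was level with the lowest deletion pool. The means were 5.14 ± 0.11 in deletion pools and 5.39 ± 0.30 in control pools (SD, n = 3 each), a difference of -0.25 (95% interval -0.59 to 0.10, limma adjusted p = 0.663, exact permutation p = 0.4, two-sided). This value rested on single pools: it was -0.42 without control 1 (unadjusted p = 0.00632, limma adjusted p = 0.449) and -0.14 without control 3 (limma adjusted p = 0.865). The second Pgr probe was detected on no array (detection p from 0.0919 to 0.615) and differed by -0.04. In whole tissue, fewer cells of a type and less RNA per cell cannot be told apart.

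For the corticosteroid receptors there was no measured level to compare. Nr3c1, the glucocorticoid receptor gene, had 1 probe, ILMN_2740568, with a raw signal of 143.7, 139.6 and 128.5 in SIRT1 deletion pools and 153.2, 154.1 and 144.1 in control pools. It was detected on 1 array, that of control 2, with SIRT1 deletion 1 and control 1 just over the detection threshold. The log2 intensity of 4.87, 4.69 and 4.38 in deletion pools and 4.88, 4.98 and 4.69 in control pools overlapped, and the difference was -0.20, or -0.07 without SIRT1 deletion 3 and -0.32 without SIRT1 deletion 1. It did not enter the filtered fit, and in the fit without a filter its limma adjusted p was 0.765. Both probes of Nr3c2, the mineralocorticoid receptor gene, were not well above background on any array (detection p from 0.174 to 0.98), with differences of 0.01 and -0.03. All 3 probes of Esr2 were likewise not detected (0.0502 to 0.924), with differences from -0.16 to -0.06. The probe just inside the filter, ILMN_1217248 of Ncoa2, was detected on 3 arrays, and the nearest outside it, that of Nr3c1, on 1.

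**Figure D2:**
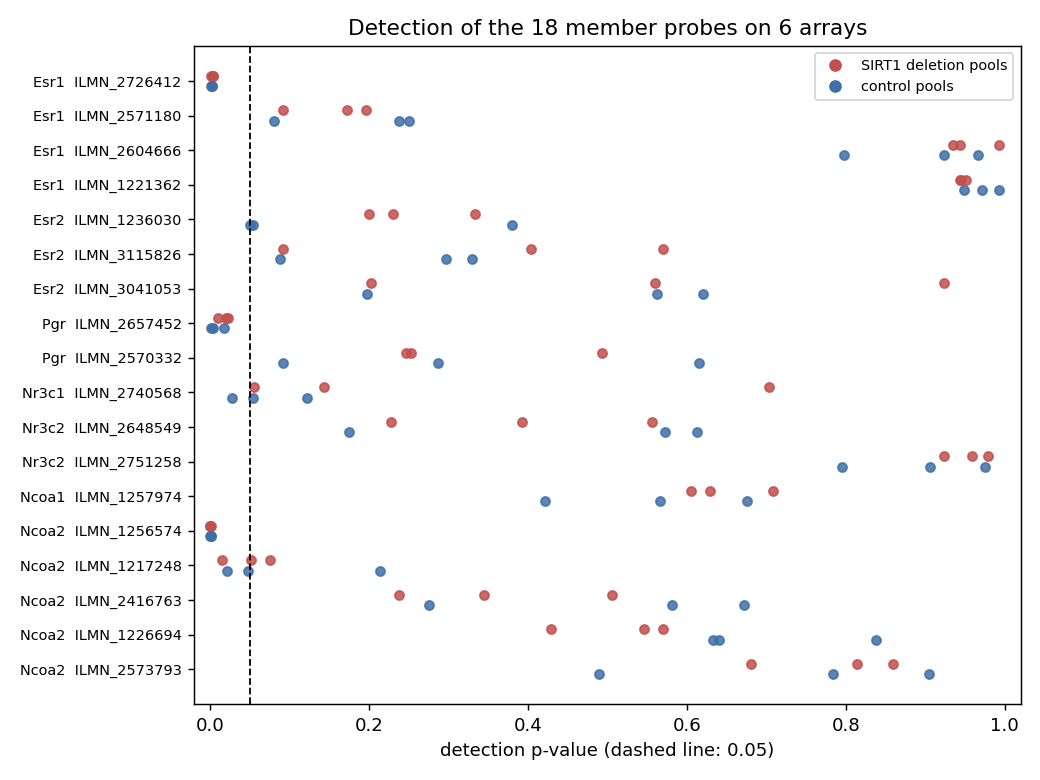
Detection p-value of each of the 18 probes (rows, gene and probe ID) on each array, with SIRT1 deletion pools in red above control pools in blue and a dashed line at 0.05. Only 3 probes, those of Esr1, Pgr and Ncoa2 at the far left, lie under the line in all 6 pools, and 13 lie above it in every pool.

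Among the coregulators, Ncoa2, which encodes the p160 coactivator also known as GRIP1 or TIF2, had 5 probes, of which 2 were tested. ILMN_1256574 had a raw signal of 167.8, 173.4 and 173.4 in SIRT1 deletion pools and 180.1, 172.9 and 179.8 in control pools. Its log2 intensity was 5.77, 5.86 and 5.87 in deletion pools and 5.76, 5.60 and 5.82 in control pools. SIRT1 deletion 1 lay below control 3, and the other deletion pools lay above all controls. The means of 5.83 ± 0.06 in deletion pools and 5.73 ± 0.12 in control pools (SD, n = 3 each) differed by 0.10 (95% interval -0.12 to 0.32, limma adjusted p = 0.77, exact permutation p = 0.2, two-sided). Without control 2 the difference was 0.04. The dimmer ILMN_1217248 was detected on 1 deletion array and 2 control arrays, with 4.78, 4.90 and 5.09 in deletion pools and 4.63, 5.01 and 4.87 in control pools, and differed by 0.09 (-0.20 to 0.38, limma adjusted p = 0.861). Its sign turned without control 1 (-0.02), and it was 0.00 without SIRT1 deletion 3, 0.16 without SIRT1 deletion 1 and 0.17 without control 2. The other 3 Ncoa2 probes were detected on no array and differed by -0.02 to 0.07. Ncoa1, which encodes the p160 coactivator SRC-1, had 1 probe, which was not well above background on any array (detection p from 0.421 to 0.708) and differed by -0.04.

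Over the 14 probes that missed the filter, 5 were higher and 9 lower in SIRT1 deletion pools, with differences from -0.20 to 0.07. These are differences between signals at or near background, and in the fit without a filter their limma adjusted p ran from 0.756 to 0.991. In 1 of them, ILMN_1226694 of Ncoa2, all deletion pools (4.44, 4.50 and 4.43) were above all control pools (4.42, 4.41 and 4.33). Its means differed by 0.07 on the log2 scale (0.04 without control 3), and the probe was detected on no array. Over all tested probes 14.0% had groups that did not overlap, so 1 among these 14 says little.

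The genes whose pattern over the 6 arrays was most like that of a measured member were Cck for Esr1 (Pearson r = 0.991, Spearman rho = 0.943), Cdk9 for Pgr (r = 0.991, rho = 1.0) and Tmem126b for Ncoa2 (r = 0.993, rho = 0.943). Each was the highest r among 11048 other genes, over only 6 arrays that also share the normalisation, so these values describe the arrays and carry no test.

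The rest of the steroid receptor pathway was read from 5 lists with 116 genes, of which 90 were measured, each by its brightest probe that passed the filter. In no gene did the difference pass a limma adjusted p of 0.05. At an unadjusted p under 0.05, 5 genes were higher and 3 lower in SIRT1 deletion pools, 8.89% of the 90, against 3.92% higher, 3.94% lower and 7.86% in all over 11049 genes (0.0453% of them passed the adjusted threshold). The median difference of the 90 genes was 0.01, and that of all genes -0.01. Groups that did not overlap are named below for some genes only. They occurred in 14.0% of all tested probes, so such a separation alone says little.

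Other receptors and coregulators comprised 39 genes, of which 31 were measured (21 higher, 10 lower, median 0.04). The 3 of lowest p did not pass the adjusted threshold. Ncoa4, which encodes a nuclear receptor coactivator that is also a cargo receptor in ferritin autophagy, had a log2 intensity of 6.10, 6.29 and 6.43 in SIRT1 deletion pools and 5.92, 5.87 and 5.73 in control pools, so that all deletion pools were above all control pools. Its difference was 0.43 (95% interval 0.18 to 0.69, unadjusted p = 0.00414, limma adjusted p = 0.436). A second Ncoa4 probe, ILMN_3132361, gave 6.34, 6.51 and 5.79 in deletion pools and 5.70, 5.65 and 5.50 in control pools, a difference of 0.60 (0.20 to 0.99, limma adjusted p = 0.47), and the remaining probe gave 0.17 with overlapping groups. Nsd1, which encodes a histone methyltransferase that binds nuclear receptors, averaged 5.05 ± 0.10 in deletion pools and 5.49 ± 0.22 in control pools (SD, n = 3 each), a difference of -0.44 (limma adjusted p = 0.47). The Nsd1 probe was dim, with a detection p-value from 0.00107 to 0.0331 over the arrays.

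Tbl1x encodes a subunit of the corepressor complex built around the product of Ncor1, and its 2 detected probes disagreed. ILMN_2674890 had 7.93, 8.13 and 7.93 in SIRT1 deletion pools and 8.18, 8.43 and 8.37 in control pools, a difference of -0.33 (limma adjusted p = 0.512). ILMN_1215596 had 5.46, 5.65 and 5.38 in deletion pools and 5.12, 5.19 and 5.37 in control pools, a difference of 0.27 (limma adjusted p = 0.572). The groups were apart by both probes, by the dimmer one barely, and in opposite directions, so the array gives no direction for this gene. Other members of that complex had small differences: Hdac3, the deacetylase it activates, had -0.11, Gps2 had -0.13 and Tbl1xr1 had 0.04 (limma adjusted p = 0.741, 0.682 and 0.94). For Gps2 all deletion pools were below all control pools. The acetyltransferase genes Crebbp and Ep300, which p160 coactivators recruit, had -0.20 and -0.04 (limma adjusted p = 0.643 and 0.918). Crebbp was dim, detected on 1 deletion array and 2 control arrays.

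Receptor chaperones, which hold unliganded receptors ready to bind hormone, were measured in 13 of 14 genes (6 higher, 7 lower, median -0.04), and none reached an unadjusted p of 0.05. The lowest p were those of Stub1 (-0.23), a ubiquitin ligase, St13 (-0.29), a cofactor of HSP70, and Dnajb1 (-0.16), a J-domain cochaperone, with limma adjusted p from 0.606 to 0.64. A second detected Stub1 probe had the other sign (0.08), Stub1 had -0.13 without control 2, St13 had -0.14 without control 1, and for Dnajb1 all deletion pools (11.44, 11.54 and 11.37) were below all control pools (11.67, 11.55 and 11.61). Fkbp4, an immunophilin that promotes receptor transport, had 0.13, and Hsp90aa1, an HSP90 gene, had -0.14.

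Of 25 genes of steroid synthesis and metabolism 13 were measured (7 higher, 6 lower, median 0.01). H6pd, whose enzyme supplies NADPH to the enzyme encoded by Hsd11b1, had 5.73, 5.88 and 5.65 in SIRT1 deletion pools and 5.31, 5.11 and 5.59 in control pools, all deletion pools above all controls. Its difference was 0.42 (95% interval 0.12 to 0.72, limma adjusted p = 0.507). Hsd11b1 itself, which regenerates active glucocorticoid inside cells, had 0.01, 0.03 and 0.09 by its 3 detected probes (limma adjusted p from 0.826 to 0.988). Hsd17b11 (-0.47) and Hsd3b2 (-0.37), both steroid dehydrogenase genes, had limma adjusted p of 0.628 and 0.682 with groups that overlapped, and they had -0.74 and -0.70 without SIRT1 deletion 1 and -0.23 and -0.20 without SIRT1 deletion 3. Mouse Hsd3b genes are close copies, so the Hsd3b2 probe may read more than 1 of them. Star, which feeds cholesterol into steroid synthesis, and Cyp17a1 were detected on no array.

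Genes known to be induced by glucocorticoids were measured in 19 of 21 (9 higher, 10 lower, median -0.01). Fam107a, a stress-induced actin regulator gene, had 10.04, 10.17 and 10.13 in SIRT1 deletion pools and 9.66, 9.65 and 9.66 in control pools, a difference of 0.46 (95% interval 0.26 to 0.65, limma adjusted p = 0.254). Its call depended on the processing: it passed with a robust prior that follows intensity (limma adjusted p = 0.0158), without background correction (0.0257) and in the authors' normalised table (0.0277). Cebpd, a transcription factor gene, had -0.41 (limma adjusted p = 0.536) by a dim probe, with a detection p-value from 0.00107 to 0.015 over the arrays. Nfkbia, which encodes an NF-kB inhibitor, had -0.30 (limma adjusted p = 0.594), and -0.18 without control 2. Among well-known targets of the receptor, Tsc22d3, which encodes GILZ, had -0.01 by its brightest probe, Fkbp5, a feedback chaperone of the receptor, had 0.11, Per1 had 0.00 and Klf9 had 0.03 (limma adjusted p from 0.806 to 0.998). Other detected Tsc22d3 probes gave 0.13 and 0.25. Further genes of the list had larger differences in both directions: Zbtb16 -0.30, Sgk1 -0.17, Dusp1 -0.17 and Cdkn1a 0.21 (limma adjusted p from 0.631 to 0.892). For Dusp1 all deletion pools were below all control pools.

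Oestrogen-responsive hypothalamic genes were measured in 15 of 18 (5 higher, 10 lower, median -0.04, Pgr included). Trh, which encodes thyrotropin-releasing hormone, had 11.65, 11.49 and 11.69 in SIRT1 deletion pools and 11.29, 11.46 and 11.29 in control pools, with all deletion pools above all controls. Its difference was 0.26 (95% interval 0.04 to 0.49, limma adjusted p = 0.554). Tac1, which encodes substance P, had -0.18 (limma adjusted p = 0.644), and -0.10 without control 3. Greb1, an oestrogen-induced cofactor of the receptor, had 0.15 by both detected probes, Penk, which encodes enkephalin, had -0.04 and Kiss1, which encodes kisspeptin, had -0.01. The oxytocin receptor gene Oxtr was detected on no array. How far the exocrine pancreas and other marker genes that moved with the groups bear on these values was not tested.

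**Figure D3:**
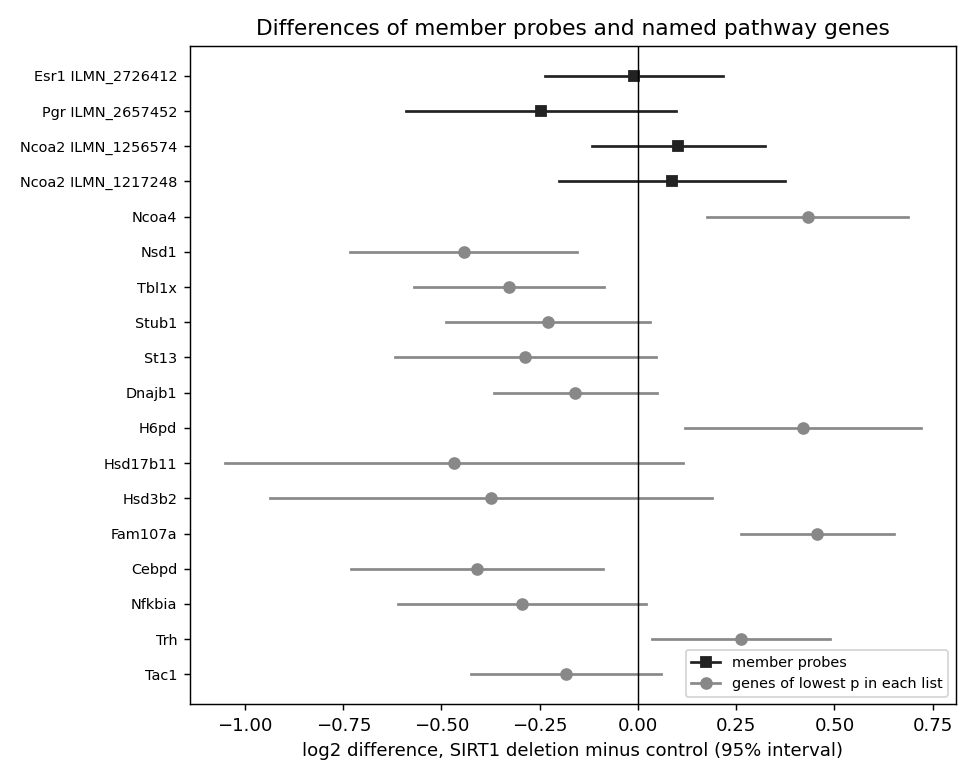
Log2 difference, SIRT1 deletion minus control, with its 95% interval (limma) for the 4 tested member probes (black squares) and for the 3 genes of lowest p in each pathway list (grey circles; Pgr, also among them, stands with the members). All member intervals include 0, with Pgr lowest at -0.25.

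**Figure D4:**
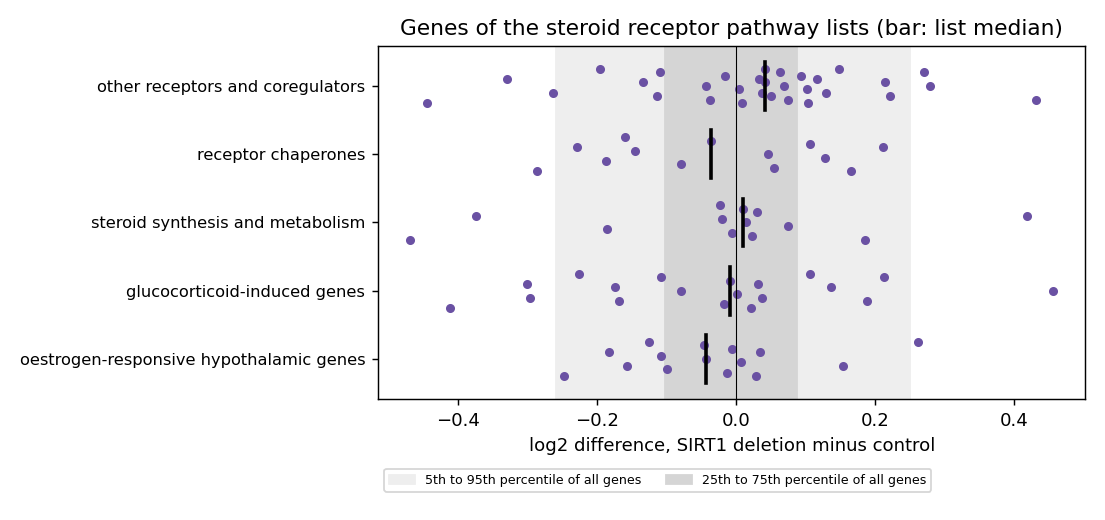
Log2 difference, SIRT1 deletion minus control, of every measured gene in the 5 pathway lists (points) with the list medians (black bars), over bands that hold the middle 50% and 90% of all 11049 genes. The medians lie between -0.04 and 0.04, inside the inner band from -0.10 to 0.09.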

How the data were processed

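Total RNA of each pool was extracted with Trizol, treated with DNase, assessed by Bioanalyser and amplified to biotin-labelled cRNA, per the labels' protocols. The authors deposited a mean bead intensity (linear, neither background-subtracted nor scaled) with its detection p-value, for 45281 probes per array, per the file headers. The authors' other deposited table holds intensity values with a shared median and maximum, as quantile normalisation gives, and served as an alternative. The sources used here do not name the array software. Of the probes, 34885 had 1 symbol in the platform annotation, 18 several and 10378 none.

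The neqc function of limma 3.58.1 (R 4.3.3) applied normexp correction informed by detection p-values, an offset of 16, quantile normalisation and log2. Probes detected (p under 0.05) on 3 or more of the 6 arrays entered 1 fit (lmFit, eBayes, 20402 probes), with Benjamini-Hochberg adjustment over all of them. Pathway genes were read from their brightest tested probe. All member probes were named, and of each pathway list the 3 genes of lowest p. Other genes were chosen after their values were seen, for their role: Hdac3, Gps2, Tbl1xr1, Crebbp, Ep300, Fkbp4, Hsp90aa1, Hsd11b1, Star, Cyp17a1, Tsc22d3, Fkbp5, Per1, Klf9, Zbtb16, Sgk1, Dusp1, Cdkn1a, Greb1, Penk, Kiss1 and Oxtr. Members and lists were chosen with earlier results of these data known. The fit was run on simulated data with independent noise and known changes larger than any member difference. That run does not give its power for differences as small as those of the members. Python 3.11.15 with matplotlib 3.10.9 drew the figures. The number of arrays limits the precision. The labels do not say that a replicate number is shared between groups, so the fit has no replicate block. Same-numbered pools did not deviate together (correlations from -0.08 to -0.04). Alternatives covered background correction, offset, normalisation, filter, unit of the fit, variance prior, array weights, block, threshold and each pool left out.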

Additional observations from a re-analysis of the deposited data

How the results depend on the processing

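No member probe was called under any of the 18 alternatives, and at an unadjusted p under 0.05 the number was 0 in all but the fit without control 1, where it was 1 (Pgr). The tested member probes numbered 4, or 18 without a filter, 3 with 1 probe per gene and 2 with detection p under 0.01 on all 6 arrays. The Esr1 difference of -0.01 changed sign with array weights (0.00957), without SIRT1 deletion 2 (0.0362) and without control 1 (0.0465), and with a pool left out it ranged from -0.0602 to 0.0465. The same holds for the dimmer Ncoa2 probe (0.09) without control 1 (-0.016; range 0.175 to -0.016), and for Sirt1 (-0.03) without SIRT1 deletion 3 (0.0391) and without control 1 (0.0267; range -0.0923 to 0.0391). Pgr ranged from -0.42 to -0.06, smallest without background correction, and the brighter Ncoa2 probe from 0.02 to 0.15. Fam107a passed in 3 alternatives. Across all tested probes, calls numbered 10 in the reported fit (6 higher, 4 lower in SIRT1 deletion pools). Their number was 16 with normexp without negative controls, 16 with an offset of 50 (7 higher, 9 lower), 19 with median scaling (7 higher, 12 lower), 2 with the stricter filter, 29 with an intensity trend and robust prior, 17 at an adjusted p under 0.10, and from 9 to 12 with a pool left out. With the replicate number as a block 8 were called and 0 of the member probes. Median scaling moved the median difference of all tested probes to -0.12, so member values under it (Esr1 -0.09, Pgr -0.30, Ncoa2 0.02) are relative to that shift. Dim signals limit the members: 14 of 18 probes were not above background on enough arrays to test.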

Other observations

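Of the 116 genes in the pathway lists, 17 had probes but none that passed the filter. Among them were coregulator genes (Ncoa3, Ncoa7, Nrip1), the orphan receptor genes Nr0b1 and Nr0b2, whose products repress other nuclear receptors, and the steroid enzyme genes Hsd11b2 and Sult1e1. The probes of these 7 genes were detected on no array, so the arrays held no measured level for them in SIRT1 deletion or control pools.

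Some detected probes of 1 gene differed in sign beyond Tbl1x, in cases chosen after their values were seen. Safb2, which encodes a nuclear matrix protein that represses oestrogen receptor activity, had 0.28 by its brighter probe (unadjusted p = 0.0394, limma adjusted p = 0.572) and -0.06 by the other. Med1, a Mediator subunit that binds liganded receptors, had 0.22, 0.18 and -0.10 by 3 probes, none of which passed (limma adjusted p from 0.632 to 0.863). Eif2s3y had -0.06 by its brighter probe and 0.45 by its dimmer one (unadjusted p = 0.0371, limma adjusted p = 0.572).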
